A study of Neocallimastix californiae and Anaeromyces robustus with 43 samples.

Results

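The 100 transcripts described here are the abundant transcripts of the anaerobic gut fungus Anaeromyces robustus whose relative abundance varied least between carbon sources. For each of 17127 transcripts of this fungus, the median abundance on each of 7 substrates was taken, in TPM, a length-corrected share of transcripts that sums to 1000000 in each library. Of these, 459 had every median at or above 100 TPM, and the 100 with the smallest ratio of the highest to the lowest of their 7 medians were kept. The set was thus chosen by the measured levels themselves, and its levels, its small ratios and its comparisons between substrates are given as descriptions.

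The study grew A. robustus (strain label S4) and another gut fungus, Neocallimastix californiae (G1), on single carbon sources and sequenced their messenger RNA. The 20 A. robustus libraries are 3 each on glucose, maltose, cellobiose, Avicel (microcrystalline cellulose), reed canary grass and switchgrass, and 2 on corn stover. All cultures had about 10 ml of Medium C, were kept at 39 °C and were harvested in exponential growth once the gas pressure had reached 5 psi. Glucose is the simplest sugar in the design and served as the reference, and the grasses are plant biomass that holds hemicellulose and lignin beside cellulose.

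Anaerobic gut fungi are early-branching fungi of the digestive tract of plant-eating mammals, known for secreting large mixtures of enzymes that open plant cell walls. They carry hydrogenosomes in place of mitochondria and live by fermentation. In growing fungi the most abundant messenger RNAs with steady levels commonly encode ribosomal proteins, translation factors, histones, cytoskeletal proteins and enzymes of sugar breakdown, and such transcripts are often sought as internal references. The deposited identifiers are not paired with gene names, so no function is given to any transcript below and no sequence is shown.

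Library totals ran from 1946186 to 31742828 expected counts (median 15176293), and the lowest belonged to maltose replicate 3, in which 1 transcript, Locus13069v1rpkm0.51, held 54.5% of all TPM. Avicel replicate 1 also stood apart. Nothing in the labels says that replicates were separate cultures, so a p-value here reflects only how these libraries differ, in part perhaps for technical reasons. Values are shares of a library of a whole culture, in which fewer cells with a transcript and less of that RNA per cell cannot be told apart.

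The 100 transcripts had ratios of the highest to the lowest median between 1.15 and 1.54, with a median of 1.43. Only 6 stayed within 1.3, and 84 stayed within 1.5. The other 359 transcripts over the floor had a median ratio of 2.58 and reached 34.2. The border of the set is not a gap. Locus168v1rpkm1437.96, Locus133v1rpkm2158.22 and Locus102v1rpkm2944.59 lay just inside it at 1.53, 1.54 and 1.54, and Locus358v1rpkm401.70, Locus1354v1rpkm57.50 and Locus192v1rpkm1134.74 lay just outside at 1.54, 1.54 and 1.55. At the abundance floor, the lowest median of a chosen transcript was 122 TPM, in Locus465v1rpkm261.55. Locus662v1rpkm158.85 had a ratio as small as the chosen ones, 1.52, but a lowest median of 93.4 TPM, and was not taken.

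The set was weighted toward very abundant transcripts. The mean of the 7 medians ran from 143 to 10033 TPM, with a median of 2990 TPM, against 526 TPM in the other transcripts over the floor. Of the 52 transcripts over the floor with a mean above 5000 TPM, 25 were in the set, and of the 88 between 2000 and 5000 TPM, 41 were. Of the 184 transcripts between 100 and 500 TPM, 12 were. By rank, 51 of the 100 most abundant transcripts over the floor belonged to the set, but only 2 of the top 10. The median count per library had a median of 31809 over the members and 7862 over the other transcripts over the floor, and 2 of the 100 members had fewer than 10 counts in some library. The part of counting depth in this weighting was not tested.

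**Figure D1:**
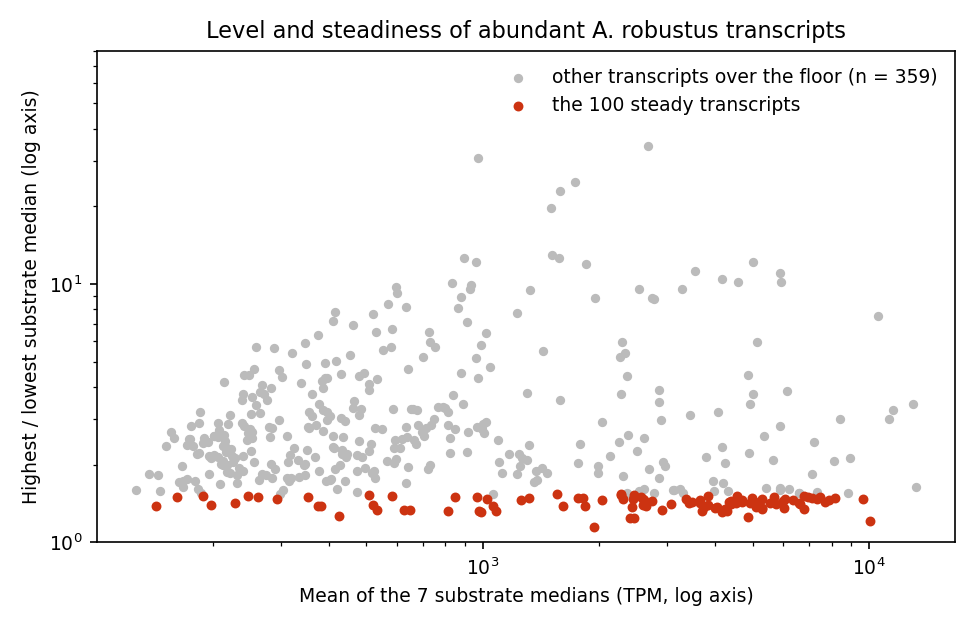
Each point is 1 of the 459 A. robustus transcripts with all 7 medians at or above 100 TPM: the x axis is the mean of its 7 medians in TPM and the y axis the ratio of its highest to its lowest median, both on log axes. The 100 chosen transcripts (red, ratios 1.15 to 1.54) crowd the right side, where levels are above 2000 TPM, and the others (grey) reach a ratio of 34.2.

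The steadiest transcript was Locus15842v1rpkm0.00. It stood at 1859, 2636 and 1905 TPM on glucose, 2352, 1828 and 644 TPM on maltose, 1715, 2141 and 1972 TPM on cellobiose and 2168, 1884 and 2102 TPM on Avicel. On the plant biomass it stood at 1707, 2014 and 2088 TPM on reed canary grass, 1841, 1668 and 1956 TPM on switchgrass, and 2052 and 1868 TPM on corn stover. Apart from the 644 TPM of maltose replicate 3, the libraries of every substrate overlapped with those of every other. Its 7 medians differed by a ratio of 1.15, and it rested on 181 to 2797 counts per library.

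The next, Locus20v1rpkm7522.33, was also the most abundant of the set and ranked 6 among all transcripts over the floor. Its levels were 8517, 10756 and 10123 TPM on glucose, 11318, 9631 and 3012 TPM on maltose, 9666, 10652 and 8949 TPM on cellobiose, and 18981, 8972 and 8635 TPM on Avicel. They were 10314, 10498 and 10452 TPM on reed canary grass, 10342, 10923 and 10566 TPM on switchgrass, and 11239 and 10400 TPM on corn stover. All libraries but 2 lay within a narrow band, and those 2 were maltose replicate 3, which was low, and Avicel replicate 1, which was high. Its medians ran from 8972 TPM on Avicel to 10819 TPM on corn stover.

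Locus128v1rpkm2340.60 was the third steadiest, with medians from 2159 TPM on Avicel to 2687 TPM on switchgrass, a ratio of 1.24. Locus67v1rpkm4130.69 ran from 2186 TPM on Avicel to 2729 TPM on corn stover. Locus77v1rpkm3791.32 ran from 4316 TPM on glucose to 5407 TPM on corn stover. All 3 were thus lowest off the grasses and highest on a grass. The remaining 5 of the 10 steadiest were Locus879v1rpkm106.83 (mean of medians 426 TPM), Locus135v2rpkm752.25 (990 TPM; medians from 870 to 1143 TPM), Locus100v1rpkm3029.62 (4153 TPM), Locus435v1rpkm289.13 (976 TPM) and Locus582v1rpkm193.60 (1082 TPM), with ratios from 1.27 to 1.32.

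**Figure D2:**
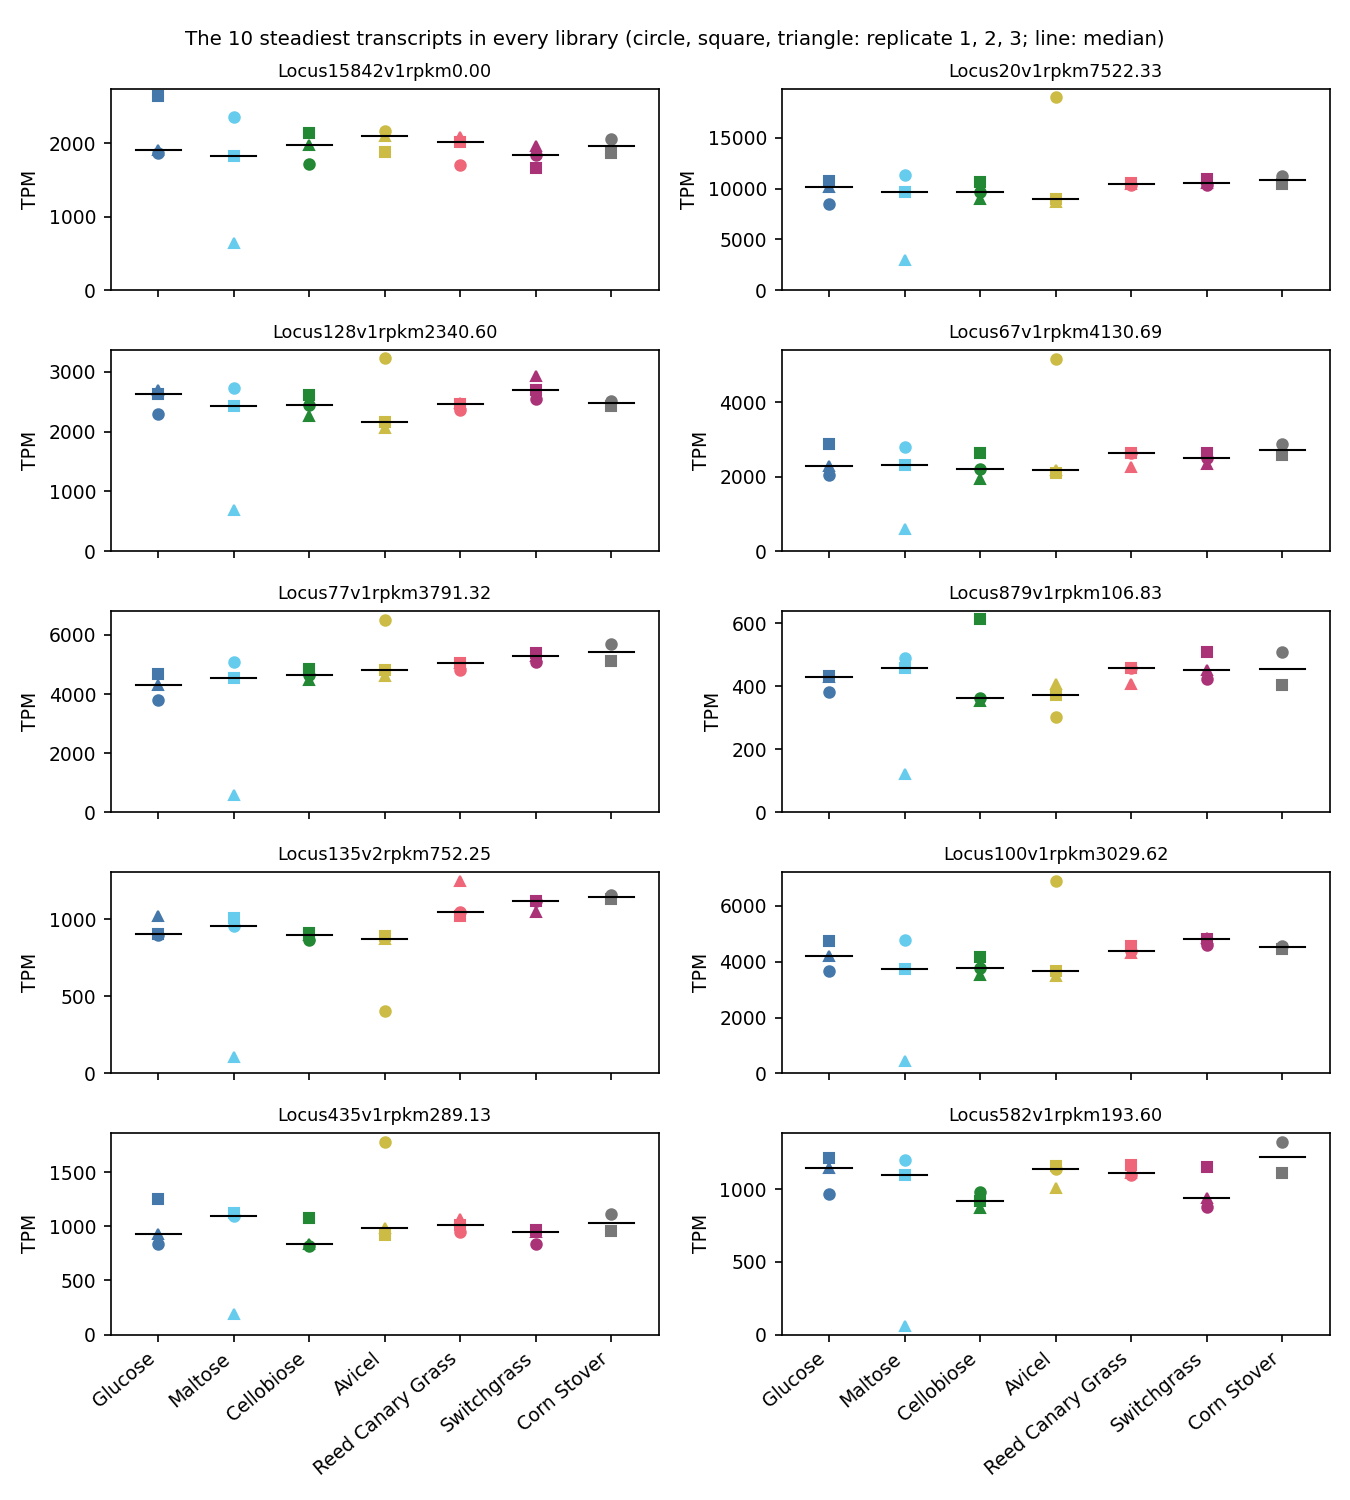
TPM of the 10 steadiest transcripts in each of the 20 libraries, 1 panel a transcript, with the 7 substrates on the x axis, symbols for replicates and a line at each median. The medians are nearly level, with ratios from 1.15 to 1.32, while the maltose replicate 3 symbol lies far below the others, at 644 TPM in Locus15842v1rpkm0.00 and 61.0 TPM in Locus582v1rpkm193.60.

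The 4 most abundant members after Locus20v1rpkm7522.33 were less steady than it. Locus22v1rpkm6667.41 averaged 9631 TPM, Locus73v1rpkm4031.10 8167 TPM, Locus123v1rpkm2411.78 7853 TPM and Locus39v1rpkm5121.19 7682 TPM over the 7 medians. Their ratios lay between 1.43 and 1.48, and each was highest on corn stover and lowest on Avicel or cellobiose. Locus22v1rpkm6667.41 had medians of 9631 TPM on glucose, 7692 TPM on Avicel and 11279 TPM on corn stover. At the other end, the 3 least abundant members were Locus465v1rpkm261.55 (143 TPM), Locus429v1rpkm293.12 (162 TPM) and Locus486v1rpkm244.92 (189 TPM).

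As a group the 100 transcripts made up a large part of the messenger RNA, with a median of 35.5% of all TPM over the 20 libraries. Their summed TPM was 32.7% ± 3.77 of the library on glucose (SD, n = 3), 29.9% ± 2.09 on cellobiose, 35.9% ± 0.671 on reed canary grass, 37.0% ± 0.417 on switchgrass and 39.2% ± 1.56 on corn stover (n = 2). On maltose it was 38.2%, 32.6% and 6.45% in the 3 libraries, and on Avicel 46.9%, 28.6% and 28.7%. Outside maltose replicate 3 and Avicel replicate 1 the share thus lay between 28.3% and 40.3%. In N. californiae the same rule on the same 7 substrates, which 658 of 29649 transcripts passed at the floor, gave 100 transcripts with a similar median ratio of 1.43. They held 12.1% to 15.6% of TPM and had a median level of 785 TPM, which describes each fungus and is no test between them.

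Within the narrow limits of the rule, many of the transcripts had similar profiles over the substrates. Corn stover gave the highest median for 71 of the 100 transcripts, and Avicel or cellobiose gave the lowest for 44 and 35. Relative to its own mean of 7 medians, the median member stood at 0.97 on glucose, 0.95 on maltose, 0.87 on cellobiose, 0.86 on Avicel, 1.07 on reed canary grass, 1.11 on switchgrass and 1.17 on corn stover. Across the 7 medians on the log2 scale, the 4950 pairs of members had a median Pearson's r of 0.76, and 75.3% of the pairs were positive. These are the medians that chose the members, and the 7 points share libraries and the TPM total, so the values describe the set and support nothing further. Each transcript divided by the members' median level in each library, a step added after seeing the data, had a median ratio of 1.17, with a range of 1.03 to 2.01.

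A minority of profiles correlated negatively with the rest. Setting each member's 7 medians against the median profile of the others gave r of at least 0.9 for 57 members and r below 0 for 14, a grouping made after the values were seen. All 14 were highest on maltose, cellobiose or Avicel. The median member was below its own mean there, so the grouping itself leans to this. Locus454v1rpkm273.65 had the most opposite profile, with r = -0.95. Locus214v1rpkm970.43 (r = -0.80), Locus444v1rpkm280.43 (r = -0.76) and Locus181v1rpkm1268.60 (r = -0.68) followed. The group also held Locus151v1rpkm1662.35, Locus168v1rpkm1437.96, Locus176v1rpkm1366.21, Locus179v1rpkm1331.80 and the steadiest transcript, Locus15842v1rpkm0.00 (r = -0.32). The r nearest to 0 in the group was -0.22, in Locus453v1rpkm274.51.

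**Figure D3:**
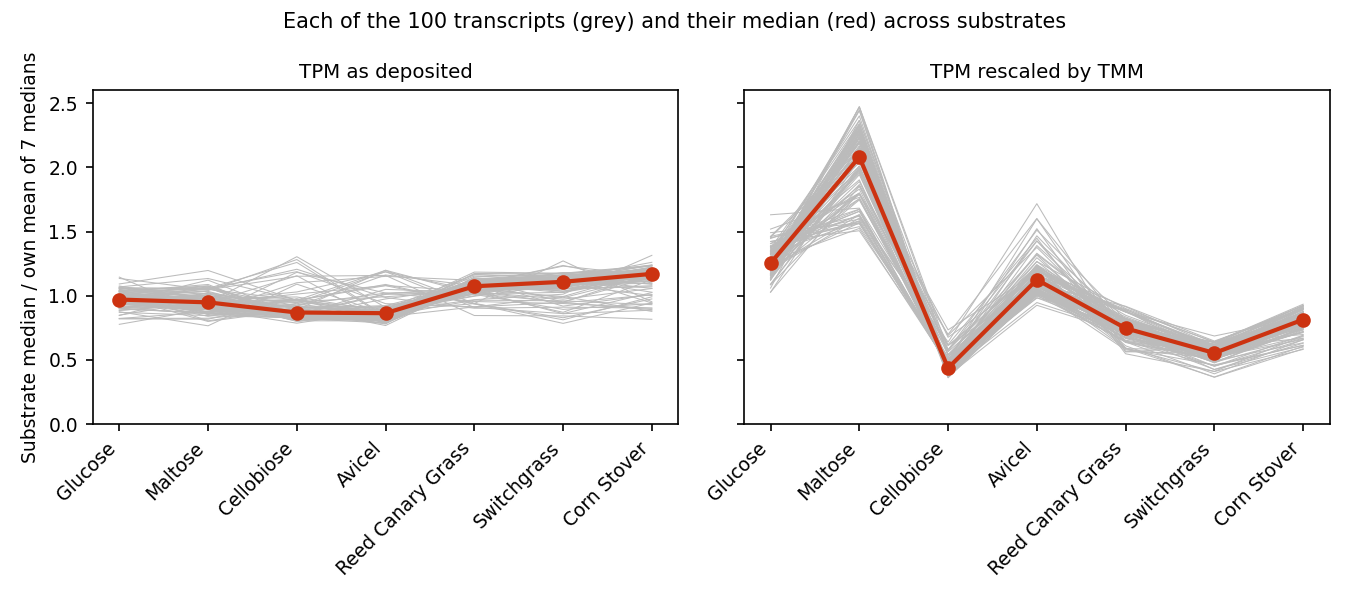
Substrate medians of each of the 100 transcripts (grey) and their median (red), divided by the transcript's own mean of 7 medians, across the 7 substrates. On the TPM scale the red line runs from 0.86 on Avicel to 1.17 on corn stover, and on the scale of TMM factors, which edgeR uses, the same transcripts run from 0.44 on cellobiose to 2.08 on maltose.

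Replicates of a substrate varied too, and most of that spread lay in 2 libraries. The coefficient of variation of TPM within a substrate, pooled over substrates, had a median of 30.5% over the members and 38.2% over the other transcripts over the floor. Without maltose replicate 3 and Avicel replicate 1 it was 8.82% and 16.9%. The rule used medians, which leave out most of this spread, but it also used these libraries. Locus159v1rpkm1565.71, Locus257v1rpkm698.74 and Locus1482v1rpkm49.73 varied least, at 17.1%, 19.3% and 22.7%. Locus465v1rpkm261.55, Locus151v1rpkm1662.35 and Locus179v1rpkm1331.80 varied most, at 47.7%, 46.6% and 46.4%.

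In maltose replicate 3 every member lay below its own mean of medians, with a median deviation of -2.65 on the log2 scale, 97 of 100 by more than 2-fold and 35 by more than 8-fold. Locus29v1rpkm5855.79 had 4.01 TPM there against a mean of 354 TPM, and Locus465v1rpkm261.55 had 2.16 TPM against 143 TPM. Locus159v1rpkm1565.71 kept most of its level, with 2234 TPM against 3070 TPM, and Locus160v1rpkm1515.95 had 1542 TPM against 2910 TPM. The other transcripts over the floor lay lower still, with a median deviation of -3.51. The members were thus low in this library, but at the median less so than the other abundant transcripts. The rank order of the members in this library correlated with that in the other 19 at a median Spearman's rho of 0.83, against 0.97 to 0.99 for the libraries other than Avicel replicate 1, which stood at 0.92.

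Avicel replicate 1 split the set. There 10 members stood more than 2-fold above their own mean and 14 more than 2-fold below it, around a median of 0.39 on the log2 scale. The other transcripts over the floor had a median deviation of -1.01 in this library. Locus76v1rpkm3825.36 had 11973 TPM in that library against 3587 and 3741 TPM in the other Avicel libraries, and Locus160v1rpkm1515.95 had 6956 TPM against 2476 and 2498 TPM. Locus151v1rpkm1662.35 had 62.8 TPM against 2370 and 2182 TPM, and Locus465v1rpkm261.55 had 8.45 TPM against 154 and 146 TPM. Of the 14 members over 2-fold low in that library, 10 belonged to the 14 with a profile r below 0. That grouping was made after the values were seen. Its Avicel medians include this library, so the overlap is a description only. Among the 10 were Locus179v1rpkm1331.80 with 195 TPM against 2794 and 2771 TPM and Locus168v1rpkm1437.96 with 537 TPM against 2818 and 2659 TPM. These 2 and Locus151v1rpkm1662.35 were also each at their highest in maltose replicate 2, at 4230, 4349 and 3178 TPM.

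**Figure D4:**
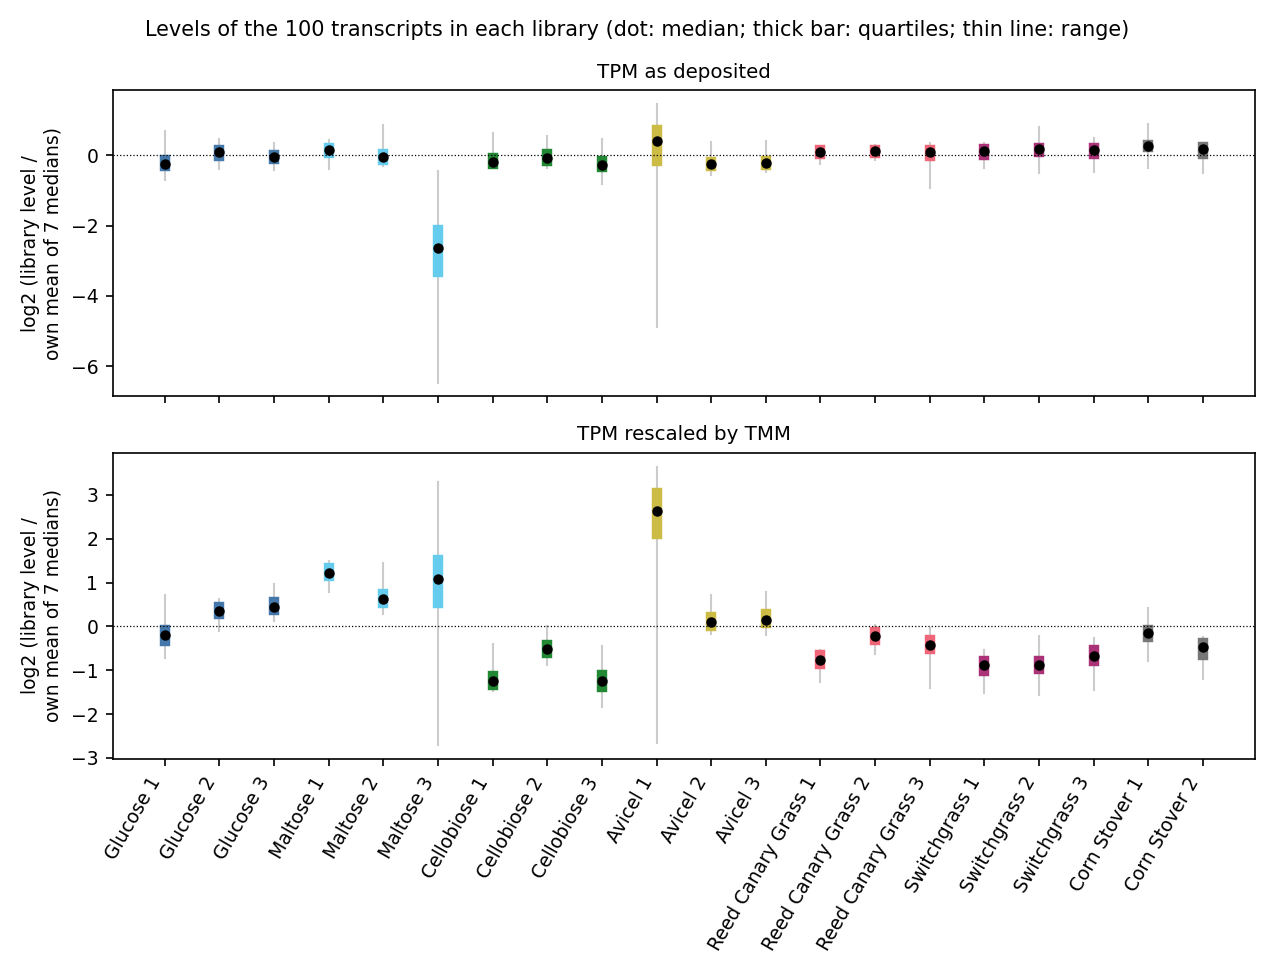
Log2 of each transcript's level in a library over its own mean of 7 medians, for the 20 libraries, on the TPM scale (top) and the TMM scale (bottom), with the median of the 100 transcripts as a dot, quartiles as a thick bar and the range as a thin line. On the TPM scale the median dots stay near 0 except in maltose replicate 3 at -2.65, and on the TMM scale Avicel replicate 1 stands highest at 2.64.

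Beyond their levels, the members shared a short effective length. The number of counts behind each TPM gives the effective transcript length relative to the others, here set to 1 for the median of the 1105 transcripts with at least 10 counts in every library. It could be had for 98 members, with a median of 0.41 and a range of 0.018 to 3.01, and 92 of them lay below 1. Among the other transcripts over the floor the median was 0.74, and 217 of 331 lay below 1. Locus15842v1rpkm0.00 was near the lower end at 0.024, and Locus465v1rpkm261.55 was the longest. At a short effective length few counts give a high TPM, and the members held a median of 25.2% of the counts, below their share of TPM.

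Some members share a locus number with other versions, and reads that fit several versions are divided between them, so such values are uncertain. This held for 21 of the 100 members, 83 of the 359 others over the floor and 1981 of all 17127 transcripts. In 15 of the 21 the other versions held under 4% of the TPM of the locus. At Locus135 and Locus98 both versions were members. Locus135v1rpkm2128.85 and Locus135v2rpkm752.25 averaged 5291 and 990 TPM, and Locus98v1rpkm3140.09 and Locus98v2rpkm0.00_PRE averaged 2039 and 6964 TPM. At Locus151 the other version, which was not a member, held 34.6% of the locus. At Locus396 the 4 other versions, none of them a member, held 37.7%. With TPM summed per locus, 98 of the 100 stayed in the set. The last number of the identifier, which no source used here explains, was below 1 for 5 members, among them Locus15842v1rpkm0.00 and Locus98v2rpkm0.00_PRE.

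Whether these transcripts are called steady depends on how libraries are scaled. TPM relates each transcript to the whole library. The trimmed mean of M-values (TMM), the scaling used with edgeR's quasi-likelihood test, aims to set the bulk of transcripts to no change. After it the median log2 fold change of all tested transcripts was -0.46 on maltose against glucose and 0.35 for the grasses against Avicel. TMM factors ran from 0.18 in maltose replicate 3 and 0.27 in Avicel replicate 1 to 1.97 in switchgrass replicate 2. With TPM rescaled by TMM, the median ratio of the 100 transcripts was 4.78 (range 2.71 to 6.77) in place of 1.43, and with DESeq2's size factors it was 3.71. On the TMM scale 99 of the 100 were highest on maltose and 82 were lowest on cellobiose, in place of corn stover and Avicel. Applied to those scales, the same rule kept 9 and 12 of the 100 transcripts. The rule on the TMM scale chose Locus315v1rpkm488.23 first, with a ratio of 1.17 there and 3.83 on the TPM scale.

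Over all 7 substrates, 99 of the 100 transcripts differed by edgeR's quasi-likelihood test with TMM scaling, at a Benjamini-Hochberg adjusted p under 0.05, where 63.6% of all 10316 tested transcripts did. The exception was Locus465v1rpkm261.55 (edgeR adjusted p = 0.13). When only library size was used for scaling, edgeR called 0 of the 100 and 0 had an unadjusted p under 0.05, while DESeq2 with its own size factors called 97 of the 98 to which it gave an adjusted p. The background was 74.2% with library size alone and 77.4% with DESeq2. Every background here is at an adjusted p under 0.05, and none was taken for counts at an unadjusted p. Since the rule chose the members on these contrasts, their counts are descriptions, and nothing is read from their distance to the background. The comparisons with glucose share the glucose libraries.

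Against glucose, the calls of the members pointed the same way within each comparison on the TMM scale. Maltose gave 0 called members by edgeR (background 0.00969%), with 19 at an unadjusted p under 0.05. DESeq2 called 8 higher on maltose (background 9.31% called, with 192 of all 7260 higher). Reed canary grass gave 4 lower, where 41.4% of all tested transcripts were called and 16.2% were called lower. Switchgrass gave 17 lower (background 42% called, 15% lower) and corn stover 2 lower (36.1% called, 13% lower). No member was called higher on a grass. The median log2 fold change of the 100 was -0.63 on reed canary grass, -1.01 on switchgrass and -0.49 on corn stover by TMM, but it turned to 0.03, 0.07 and 0.17 with library size alone. Between those scalings the median of all transcripts moved by 0.66, 1.04 and 0.64 on these grasses. The 4 called on reed canary grass were Locus454v1rpkm273.65, Locus168v1rpkm1437.96, Locus429v1rpkm293.12 and Locus176v1rpkm1366.21, and the first 2 were also those called on corn stover. All 4, and 12 of the 17 called on switchgrass, belonged to the 14 with a profile r below 0, whose grouping used the same libraries.

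Locus168v1rpkm1437.96 had 1198, 1714 and 1499 TMM-scaled counts per 1000000 (CPM) on glucose and 427, 470 and 466 CPM on switchgrass. The groups did not overlap, and the log2 fold change was -1.69 ± 0.33 (SE; edgeR adjusted p = 0.000396), with -0.63 ± 0.47 by library size alone (edgeR adjusted p = 0.29). Locus454v1rpkm273.65 had 1255, 1065 and 1989 CPM on glucose and 440, 466 and 525 CPM on switchgrass. Its log2 fold change was -1.59 ± 0.39 (edgeR adjusted p = 0.00251), with -0.52 ± 0.55 by library size alone (edgeR adjusted p = 0.47). Both calls held in each of the 20 fits that left out 1 library. In TPM the same transcripts averaged 1956 against 2774 and 193 against 247 on switchgrass and glucose.

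The number of calls on the grasses changed with single libraries, including libraries of substrates outside the comparison. Every member call in these fits was lower, while the counts of all transcripts take both directions unless given as lower. Switchgrass gave 89 without Avicel replicate 1, where 5076 of all 10293 tested transcripts were called, 1989 of them lower. It gave 7 to 9 without any 1 of its own libraries (3565 to 3650 of all transcripts called, 1094 to 1158 lower). Without glucose replicate 3 it gave 9 (3952 of 10310 called, 1290 lower). For reed canary grass the count was 32 without Avicel replicate 1 (4921 of all 10293 called, 2059 lower). It was 8 without maltose replicate 3 (4761 of 10314 called, 1998 lower). It was 2 and 1 without glucose replicates 2 and 3 (4310 of 10314 and 3836 of 10310, with 1813 and 1355 lower). Without its own replicates 1 and 3 it was 0 and 1 (3462 of 10292 and 3522 of 10309, with 1239 and 1201 lower). Corn stover gave 10 without Avicel replicate 1 (4413 of all 10293 called, 1755 lower) and 4 without maltose replicate 3 (4302 of 10314, 1738 lower). It gave 0 or 1 without 1 of cellobiose replicate 3, glucose replicate 1, 2 or 3, reed canary grass replicate 3, any switchgrass library or its own replicate 1 or 2. In those fits 2147 to 3897 of all transcripts were called. Without maltose replicate 3 and Avicel replicate 1 together, edgeR called 48 lower on reed canary grass, 97 on switchgrass and 13 on corn stover. The backgrounds were 54.9%, 55.4% and 50.1% called in either direction, and 2516, 2388 and 2227 of all 10278 transcripts were called lower. The members' median log2 fold changes were then -0.63, -1.01 and -0.49, as with all libraries. Neither library belongs to a grass or to glucose.

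On cellobiose 8 members were called lower than on glucose (background 23.4% called, 7.3% lower). At an unadjusted p under 0.05, for which no background was taken, 61 passed. The median log2 fold change was -1.14 by TMM and -0.33 by library size alone, below 0 on both scales, with 100 and 93 members below 0. Locus80v1rpkm3724.50 had 4445, 7715 and 7962 CPM on glucose and 2177, 3279 and 2300 CPM on cellobiose, which did not overlap. Its log2 fold change was -1.38 ± 0.45 (edgeR adjusted p = 0.032). That call was lost without cellobiose replicate 1 or 3 and glucose replicate 2 or 3 (edgeR adjusted p from 0.076 to 0.11). The count of 8 became 87 without Avicel replicate 1, where 3310 of all 10293 tested transcripts were called, 1227 of them lower. It was 26 and 25 without Avicel replicates 2 and 3 (2457 of 10303 and 2436 of 10301 called, with 785 and 773 lower). It was 17 without maltose replicate 3 (2957 of 10314 called, 1097 lower). It was 0 and 1 without cellobiose replicates 1 and 3 (1638 of 10234 and 1749 of 10274 called, with 479 and 468 lower). Without glucose replicates 1, 2 and 3 it was 4, 2 and 1 (1148 of 10268, 2241 of 10314 and 2404 of 10310, with 444, 876 and 556 lower). Without a corn stover library, a reed canary grass library or switchgrass replicate 3 it was 4 or 5 (2161 to 2284 of all transcripts called). Without maltose replicate 3 and Avicel replicate 1 together the count was 97 (background 40.1% called, with 1693 of all 10278 lower). The members' median log2 fold change was then -1.14, as with all libraries, and neither library belongs to cellobiose or glucose.

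On Avicel 34 members were called higher than on glucose and none lower (background 25.1% called, 10.8% higher), and these calls rested on Avicel replicate 1. Locus76v1rpkm3825.36 had 26485, 2047 and 2220 CPM on Avicel and 1695, 2431 and 2679 CPM on glucose. The groups overlapped: 1 Avicel library was far above and the other 2 lay within the glucose range. The fitted log2 fold change was 2.18 ± 0.67 (edgeR adjusted p = 0.022), and without Avicel replicate 1 it turned to -0.09 (edgeR adjusted p = 0.88). The call was also lost without glucose replicate 1 (edgeR adjusted p = 0.095). Over the set, the count of 34 fell to 0 without Avicel replicate 1 or glucose replicate 1 (2302 of 10293 and 1525 of 10268 transcripts called, with 961 and 622 higher). It fell to 10 and 3 without glucose replicates 2 and 3 (2890 of 10314 and 2106 of 10310, with 1138 and 1039 higher). Without cellobiose replicate 1, reed canary grass replicate 1 or 3, or switchgrass replicate 3 it was between 15 and 20 (2306 to 2373 of all transcripts called, 981 to 1017 higher). It was 76 and 73 without Avicel replicates 2 and 3 (2439 of 10303 and 2204 of 10301 transcripts called, with 1162 and 1081 higher). Without maltose replicate 3 and Avicel replicate 1 edgeR called 0 (background 30.3% called, with 1331 of all 10278 higher), with 1 at an unadjusted p under 0.05. The median log2 fold change of the members was 1.32 with all libraries, 0.18 by library size alone and -0.07 without the 2 libraries that stood apart.

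For the mean of the 3 grasses against Avicel, 97 members were called lower and 0 higher (background 54.4% called, 21.2% lower) by edgeR with TMM, at a median log2 fold change of -2.06. By library size alone edgeR called 0, with 0 at an unadjusted p under 0.05 and a median of -0.12. DESeq2 called 89, all lower (background 62.3% called, with 1421 of all 10256 lower). Locus181v1rpkm1268.60 had 6387, 719 and 706 CPM on Avicel and 271 to 497 CPM over the 8 grass libraries, which did not overlap on that scale. In TPM they did overlap, with 1396, 607 and 581 on Avicel and 545 to 672 on the grasses. Its log2 fold change was -2.86 ± 0.45 (edgeR adjusted p = 2.57e-05), but -0.99 without Avicel replicate 1 (edgeR adjusted p = 0.0042) and -0.79 by library size alone (edgeR adjusted p = 0.084). The TMM call held in each of the 20 fits that left out 1 library. Over the set, the median log2 fold change was -0.64 without Avicel replicate 1, and the same without maltose replicate 3 as well. Without Avicel replicate 1 the count of 97 was 49, where 5035 of all 10293 tested transcripts were called, 1868 of them lower. Without maltose replicate 3 as well it was 70 (background 55.6% called, with 2302 of all 10278 lower).

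**Figure D5:**
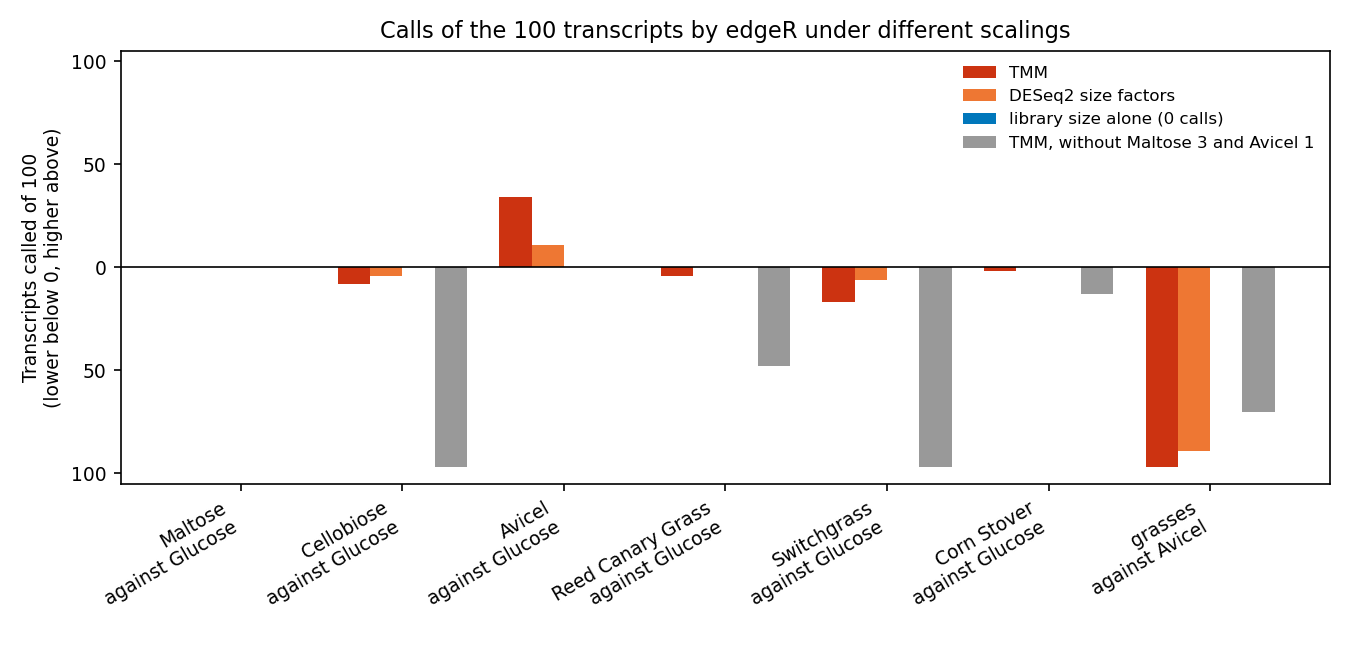
Number of the 100 transcripts that edgeR called higher (above 0) or lower (below 0) in each of the 7 comparisons on the x axis, with bars coloured by the scaling or the libraries used. With TMM the counts run from 0 on maltose to 97 lower for the grasses against Avicel, and with library size alone they are 0 in all 7 comparisons.

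The backgrounds of further settings are as follows, as calls in both directions. The member calls went 1 way within each comparison, higher on Avicel against glucose and lower on cellobiose and the grasses. With library size alone edgeR called 5.67% of all transcripts on maltose, 29.3% on cellobiose, 19.1% on Avicel, 32.5% on reed canary grass, 42.8% on switchgrass, 28.3% on corn stover and 61.5% for the grasses against Avicel, and 0 members in each, with 0 at an unadjusted p under 0.05. With DESeq2's size factors inside edgeR it called 71.5% over all substrates, where 96 members passed. With those factors 4 members passed on cellobiose (background 28.8%), 11 on Avicel (27%), 6 on switchgrass (48.2%) and 89 for the grasses against Avicel (61.2%). In the direction of the members, 594, 1068, 851 and 1419 of all 10316 transcripts were called in these comparisons. None passed on maltose (0.00969%; 43 members at an unadjusted p under 0.05), reed canary grass (43%; 2 members) or corn stover (38.8%; 1 member). DESeq2's own test called 8 members on cellobiose (31.8%), 29 on Avicel (30.2%), 2 on reed canary grass (45.3%), 7 on switchgrass (50.5%) and 1 on corn stover (41.2%). In the direction of the members it called 716, 1222, 1171, 952 and 1009 of all transcripts, of 10056 tested on Avicel and 10256 on the others. Without maltose replicate 3 and Avicel replicate 1, edgeR called 75.2% over all substrates, with 99 members, and 0.0195% on maltose, with 0 members called and 92 at an unadjusted p under 0.05. The unadjusted counts have no background at the same threshold and cannot be set against these shares.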

How the data were processed

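The members, the lists and the comparisons were chosen with earlier results of these data known. The deposited files give, for each transcript and library, expected counts, which the submitters' processing notes credit to RSEM (no version stated), and the deposited TPM, which correct the same estimates for length. The aligner, the reference transcripts and the read filters were not given in the sources used here. Libraries were made with a stranded mRNA kit, per the labels.

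Medians, ratios and shares were computed from TPM. Expected counts were rounded and tested with edgeR 4.0.16 in R 4.3.3: filterByExpr (minimum count 10, minimum total 15) kept 10316 of 17127 transcripts, holding 99.9% of counts, libraries were scaled by TMM, and 1 robust quasi-likelihood model was fitted to all 20 A. robustus libraries with 1 mean per substrate. P-values were adjusted by Benjamini-Hochberg over all tested transcripts, with a threshold of 0.05. The SE given with an edgeR fold change was derived as the absolute log2 fold change over the square root of the test's F statistic. The code was tested on simulated counts. Results of DESeq2 1.42.0 and other settings are under the closing section. Relative effective length is the count over TPM of a transcript against the median of transcripts with at least 10 counts in every library.

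Transcripts named are the 10 steadiest, the 5 most and 3 least abundant, 3 on each side of the border, the 3 with the smallest and 3 with the largest spread between replicates, the 2 highest and 2 lowest in each of the libraries that stood apart, the called members with the largest fold changes (2 in each direction), and members that share a locus. Not all are printed, and those grouped by profile, and others called on a grass, were named after their values were seen. Pathway lists could not be matched to the identifiers and were not used.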

Additional observations from a re-analysis of the deposited data

How the results depend on the processing

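Which transcripts belong to the set depends on the rule and the scale. Of the 100 members, 49 were kept with the ratio over the 20 libraries in place of medians, 9 on the TMM scale and 12 on the DESeq2 scale, and 45 to 100 when 1 library was left out (45 without maltose replicate 1). The median ratio was 4.78 (TMM), 3.71 (DESeq2), 1.62 (means in place of medians), 1.17 (divided by the members' level) and 1.41 to 2.09 when 1 library was left out. The share of expected counts was 25.2% in place of 35.5% of TPM. The median spread within substrates, 30.5%, was 46.4% (TMM), 44.1% (SD of log2 values), 8.82% (without maltose replicate 3 and Avicel replicate 1) and 16.3% to 42.4% when 1 library was left out. The range of the library medians, 3.04 on the log2 scale, was 3.89 by TMM. In Avicel replicate 1 the median deviation was 2.64 by TMM, and in maltose replicate 3 it turned from -2.65 to 1.08.

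Of the members called, library size alone gave 0 over all substrates, on cellobiose, Avicel, reed canary grass, switchgrass and corn stover and for the grasses against Avicel. DESeq2's size factors inside edgeR gave 4 on cellobiose, 11 on Avicel, 0 on reed canary grass, 6 on switchgrass and 0 on corn stover. DESeq2 itself gave 8 on maltose, 2 on reed canary grass, 7 on switchgrass and 1 on corn stover. Without the filter on low counts there were 3 on cellobiose, 2 on reed canary grass and 0 on corn stover. In that fit 2250, 4235 and 3608 of all 15532 tested transcripts were called, with 679, 1645 and 1183 lower. With a threshold of 2-fold there was 1 on corn stover (3705 of 10316, with 1333 lower). With only the compared groups in the fit there were 77 on cellobiose (2183 of all 8666 tested transcripts called), 0 on Avicel (654 of 7313) and 26 on reed canary grass (4078 of 8637). That setting gave 96 on switchgrass (4790 of 9271) and 4 on corn stover (3030 of 9057). Its calls over all transcripts were 1011 lower on cellobiose and 340 higher on Avicel. They were 1783 lower on reed canary grass, 2063 on switchgrass and 1161 on corn stover. Without maltose replicate 3 and Avicel replicate 1, chosen after seeing the data, there were 97 on cellobiose, 0 on Avicel, 48 on reed canary grass, 97 on switchgrass and 13 on corn stover. When 1 library was left out the counts ran from 98 to 100 over all substrates, 0 to 87 on cellobiose, 0 to 76 on Avicel, 0 to 32 on reed canary grass, 7 to 89 on switchgrass, 0 to 10 on corn stover and 49 to 99 for the grasses against Avicel. Those fits tested 10196 to 10781 transcripts, and the counts of all transcripts that follow take both directions. In the same order they called 5829 to 7082, 1148 to 3310, 1525 to 3129, 3066 to 4921, 3390 to 5076, 2147 to 4413 and 4990 to 6036 of all transcripts. Locus76v1rpkm3825.36 and Locus160v1rpkm1515.95 on Avicel on the log2 scale ran, when 1 library was left out, from -0.088 to 2.66 and from -0.098 to 2.44, with the lowest without Avicel replicate 1, and both turned, to -0.088 and -0.098, without maltose replicate 3 as well. Beyond these constructions the cause was not tested.

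Replicate numbers gave no sign of pairing the libraries. Deviations of same-numbered libraries of different substrates correlated at -0.26 to 0.38 over 57 pairs (median -0.00036). Those of different-numbered libraries correlated at -0.41 to 0.40 over 114 pairs (median 0.0069). With the replicate number as a block, edgeR called 4 members on cellobiose, 0 on Avicel and 0 on corn stover, and the other counts stayed within 1.5 times. Of all 10316 tested transcripts, that fit called 2189 on cellobiose, 2217 on Avicel and 3406 on corn stover. Of these, 676 on cellobiose and 1157 on corn stover were lower, and 951 on Avicel were higher. Groups of 2 or 3 libraries and the 1946186 counts of maltose replicate 3 limit all of this, and the identifiers without names limit any reading by function.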
